A study of Mus musculus with 12 samples.

Results

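Complement genes outside C1q were followed in 12 PyMT mammary tumors. The 9 genes were chosen by name from the classical and alternative pathways and their regulators, namely C1ra, C1s1, C2, C4b, C3, Cfb, Cfp, Serping1 and C5ar1, and all 9 were among the 21960 genes listed for every tumor. The tumors grew in female C57BL/6 mice that carry the polyoma middle T oncogene under the mouse mammary tumor virus promoter, which drives it in mammary epithelium, and each library held RNA of 1 whole tumor with all its cell types. Each of the 4 groups had 3 tumors. Mice received an IgG1 control antibody, an antibody against the checkpoint receptor PD-1 (anti-PD-1), the anthracycline doxorubicin together with IgG1 (DOX/IgG1) or doxorubicin together with anti-PD-1 (DOX/anti-PD-1, the combination). Without doxorubicin, treatment began at a tumor diameter of 0.6 cm with 20 mg/kg of antibody followed by doses of 10 mg/kg. With doxorubicin it began at 1 cm, with 5 mg/kg doxorubicin and 10 mg/kg antibody, so that doxorubicin cannot be told apart from starting diameter, the first dose of antibody or schedule in any comparison below. The labels give no age for the mice.

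Complement is a cascade of proteins that tags cells for uptake by phagocytes, attracts leukocytes and can open pores in membranes. In the classical pathway, C1q bound to antibody or to damaged cells activates the proteases C1r and C1s, which cleave C4 and C2 into the enzyme that splits C3. The alternative pathway starts from C3 itself and uses factor B, a relative of C2 encoded by Cfb, while properdin, encoded by Cfp, stabilizes the enzyme that forms. Serping1 encodes the C1 inhibitor, which blocks C1r and C1s, and C5ar1 encodes a receptor of the inflammatory fragment C5a on myeloid cells. The liver supplies most complement in blood, and macrophages, fibroblasts and epithelial cells also make components in tissues.

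Levels are given in TPM (a share of transcripts, scaled for gene length), and can be compared between genes. Read counts are not in the files, which leaves the depth of each library unknown, and a TPM of 0 may stand for a failed estimate. The comparisons ask how tumors differ with anti-PD-1 in the absence and in the presence of doxorubicin, and with doxorubicin under each antibody. Genes were tested with limma on log2(TPM + 1), and a gene was called at an adjusted p-value below 0.1 with an absolute log2 fold change above 1. Log2 fold changes are on the log2(TPM + 1) scale, which understates changes of low genes, and are given with their standard error (SE). The log2 values of all genes correlated between tumors with r from 0.927 to 0.976. Of the 12 libraries, DOX/IgG1 replicate 1 stood apart, and it also had the most genes at 0 (8104). The column header of DOX/IgG1 replicate 1 carries the added word test, and without it the number of called genes of all kinds went from 5 to 122 between DOX/IgG1 and IgG1 and from 13 to 301 between the 6 tumors with and the 6 without doxorubicin. Results that rest on this library are given with and without it. Across all genes tested, the median log2 fold change was 0.12 in the former comparison and also 0.12 in the latter, and scaling by the median of ratios moved both to 0.01, so differences with doxorubicin are to be read relative to that shift. The shift rests in part on IgG1 replicate 1, which had the lowest TPM sum (609418). Without IgG1 replicate 1 these medians were 0.02 and 0.06.

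The 4 most abundant members were C4b, C3, C1s1 and Cfb, with medians over the 12 tumors of 77.8, 70.6, 50.1 and 40.5 TPM. Serping1, Cfp and C1ra followed at 17.6, 12.3 and 11.8 TPM, then C2 at 7.53 TPM and C5ar1 at 3.13 TPM. The order holds only in part within single tumors. C4b exceeded C3 in 7 of 12 tumors, C3 exceeded C1s1 in 7, C1s1 exceeded Cfb in 8 and Cfp exceeded C1ra in 7, so these neighbours did not differ beyond their spread. Cfb exceeded Serping1 and C1ra exceeded C2 in all 12 tumors, although the ranges of each pair over the 12 tumors overlapped. The range of a member over the 12 tumors spanned between 2.50-fold (C3) and 8.73-fold (Cfb), apart from C5ar1, which was listed at 0 in 1 tumor. Within groups, the SD on the log2 scale was smallest for C4b (0.40) and C2 (0.44) and largest for C5ar1 (0.78) and Cfb (0.89).

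**Figure D1:**
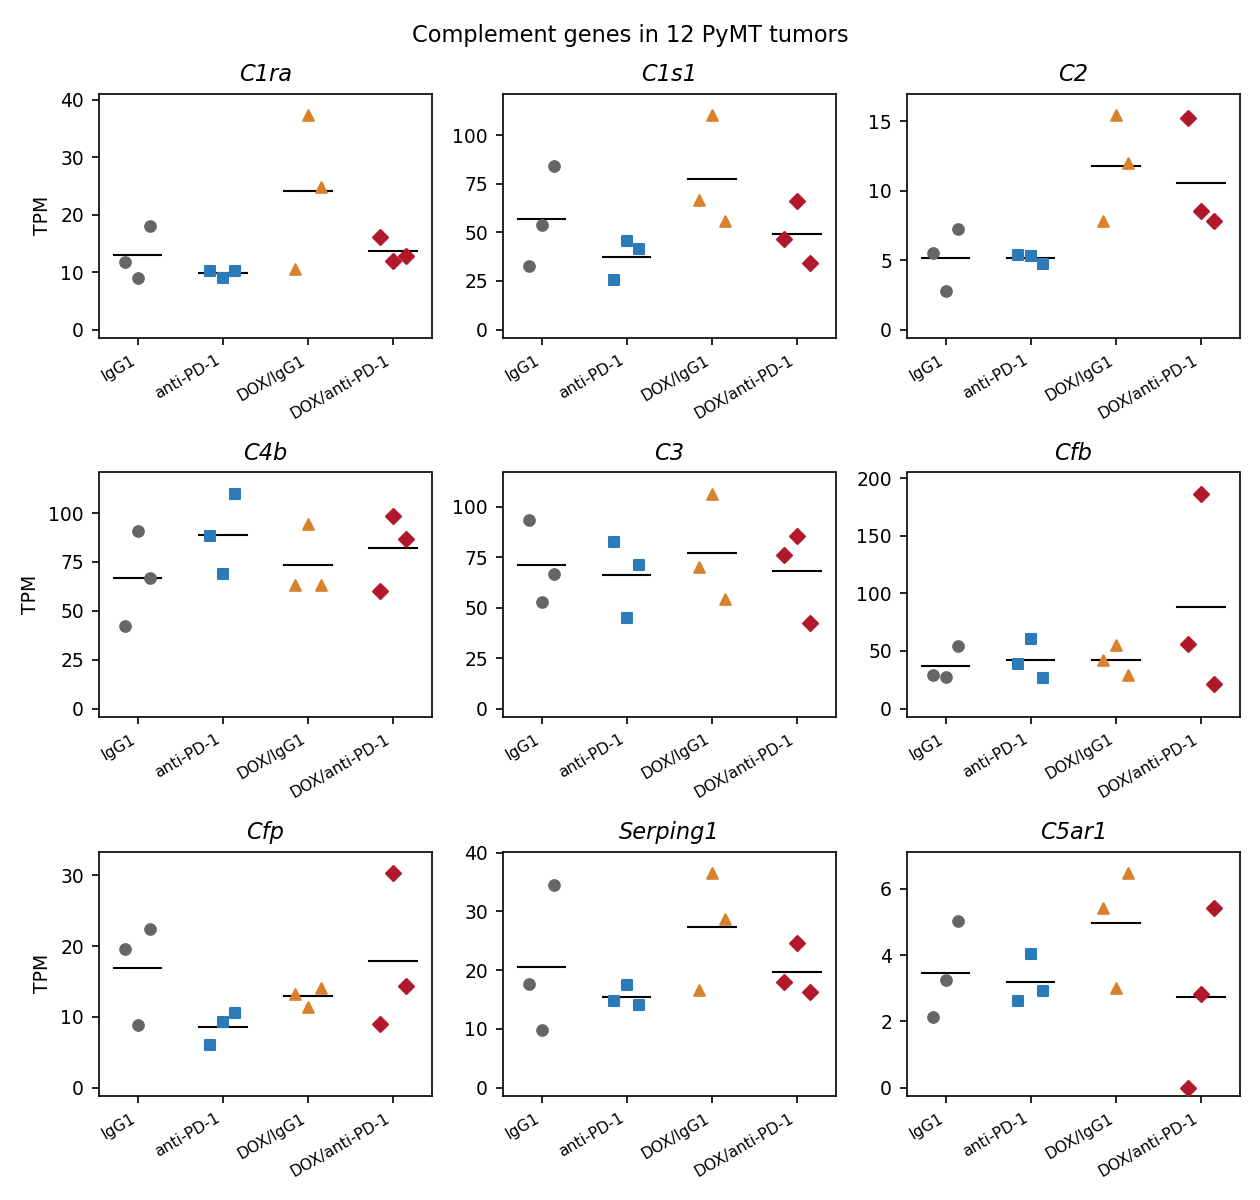
TPM of the 9 complement genes in each tumor (points) by treatment group, with the group mean (line); each vertical axis is linear and has its own range. C2 lies at 7.24 TPM or lower in the 6 tumors without doxorubicin and at 7.82 TPM or higher in the 6 with it, whereas the tumors with and without doxorubicin overlap for the other 8 genes.

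C2 was higher in every tumor with doxorubicin than in every tumor without it, by a mean of 11.2 against 5.15 TPM (n = 6 each). For the other 8 members the tumors with and without doxorubicin overlapped, and DOX/IgG1 replicate 2 had the highest value of 5 members, C1ra, C1s1, Serping1, C2 and C3. None of the 9 members was called in any of the 7 comparisons made with limma. The share of all tested genes called was 0.0% between anti-PD-1 alone and IgG1, 0.036% between DOX/IgG1 and IgG1, 0.0% between the combination and DOX/IgG1 and 0.0% between the combination and anti-PD-1 alone. It was 0.0882% for doxorubicin averaged over both antibodies, 0.00679% for anti-PD-1 averaged over tumors with and without doxorubicin and 0.00679% for the interaction of the agents. At an unadjusted p below 0.05, limma gave 1 member, C2, in DOX/IgG1 against IgG1 (7.73% of all genes), in the combination against anti-PD-1 alone (8.63%) and for doxorubicin averaged (11.9%). C1s1 reached that limit for anti-PD-1 averaged (4.77% of all genes), and 0 members did so in the remaining 3 comparisons.

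Across the members the median log2 fold change was 0.42 between DOX/IgG1 and IgG1 and 0.36 between the combination and anti-PD-1 alone, beside 0.12 and 0.11 for all genes tested, with 8 and 7 of 9 estimates above 0 (7 and 6 after scaling by the median of ratios, where C3 turned negative in both). Both medians moved with 1 tumor left out. The former was 0.19 without IgG1 replicate 1 (0.02 for all genes there), 0.20 without DOX/IgG1 replicate 2 and 0.66 without IgG1 replicate 3, and the latter 0.13 without replicate 2 of the combination. For doxorubicin averaged it was 0.40 beside 0.12, and 8 of 9 estimates were above 0, as were 63.3% of those of all genes. After that scaling the median was 0.28 and 6 of 9 were above 0, since the estimates of C3 and C4b then turned negative. Without replicate 2 of the combination the median was 0.06 with 6 of 9 above 0, no higher than that of all genes, and without IgG1 replicate 2 it was 0.19. The median of the members was -0.10 between anti-PD-1 alone and IgG1 and -0.18 between the combination and DOX/IgG1, beside -0.03 and -0.04 for all genes. For anti-PD-1 averaged it was -0.28 with 2 of 9 above 0, beside -0.03 for all genes, and -0.25 after scaling, and with 1 tumor left out it lay between -0.47 without IgG1 replicate 2 and -0.16 without IgG1 replicate 3. The medians of both pairwise comparisons changed sign with 1 tumor left out, the former to 0.19 without IgG1 replicate 3 and the latter to 0.05 without DOX/IgG1 replicate 2 and 0.01 without replicate 3 of the combination.

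**Figure D2:**
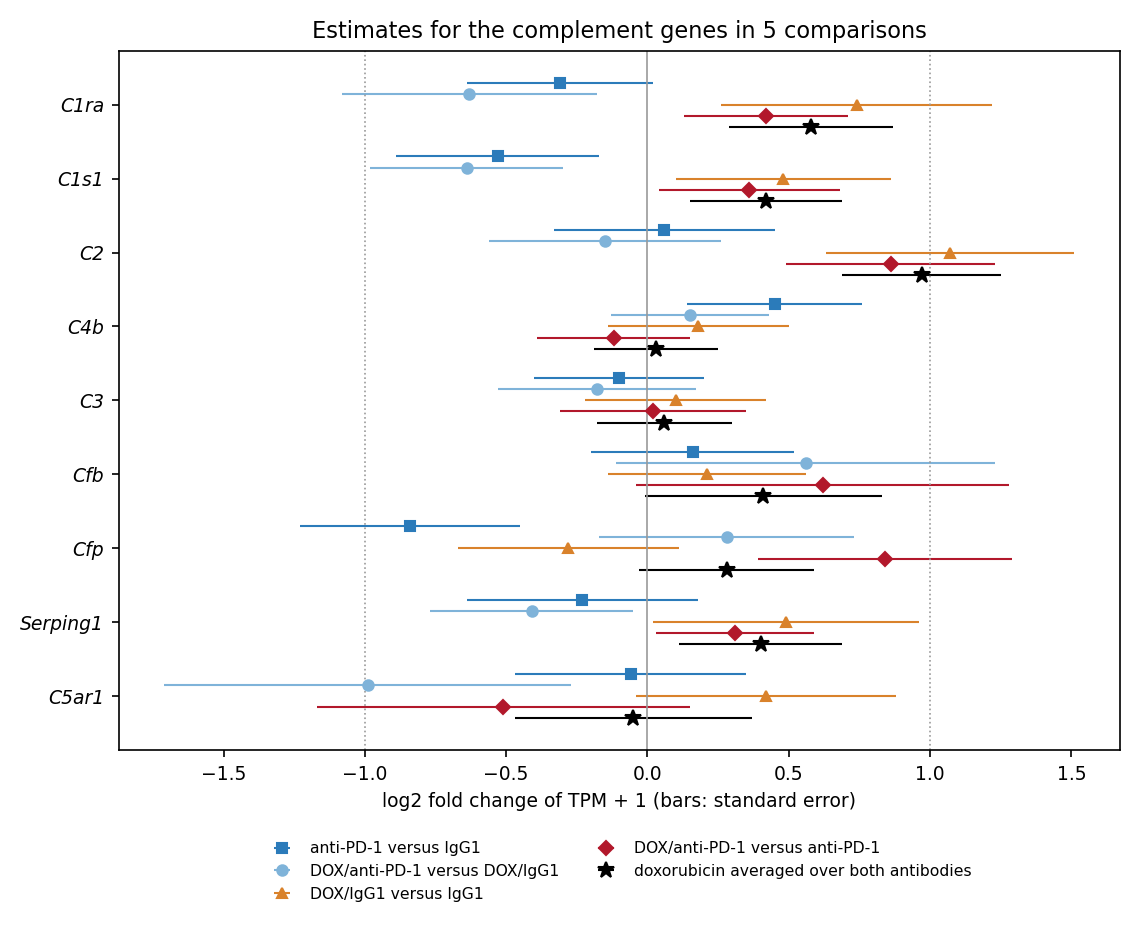
Log2 fold changes of TPM + 1 (horizontal axis) of the 9 genes in 5 comparisons, with standard errors as bars and dotted lines at -1 and 1. The estimates of C2 with doxorubicin, between 0.86 and 1.07, lie farthest to the right for their comparisons, and comparisons that share a group are not independent of each other.

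C2, the protease that C1s cleaves to form the classical C3 convertase, was the member that separated tumors by doxorubicin. C2 (ENSMUSG00000024371, chromosome 17, 34862604 to 34898265, minus strand, mm10) had 5.50, 2.80 and 7.24 TPM (IgG1) and 5.34, 5.33 and 4.69 TPM (anti-PD-1 alone). It had 7.82, 15.45 and 11.99 TPM (DOX/IgG1) and 15.26, 8.57 and 7.82 TPM (combination). All 6 tumors with doxorubicin thus lay above all 6 without, by a gap of less than 1 TPM between the nearest of them, and the same held after scaling by the median of ratios (7.5 to 15.33 against 2.70 to 6.71 TPM). Such a separation upward was found in 88 of 14735 tested genes (0.597%). The mean was 11.2 TPM with and 5.15 TPM without doxorubicin, a log2 fold change of 0.97 (SE 0.28, limma p = 0.00448, adjusted p = 0.245), and the exact permutation test over 6 against 6 tumors gave p = 0.00216, two-sided, the smallest it can give. C2 therefore did not pass the adjustment over all genes. Without DOX/IgG1 replicate 1, where 301 genes (2.04%) were called, C2 was among them, with a log2 fold change of 1.09 and a limma adjusted p of 0.0934, and over all alternatives the adjusted p lay between 0.0934 and 0.412.

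Within each antibody, C2 gave a log2 fold change of 1.07 between DOX/IgG1 and IgG1 (SE 0.44, limma adjusted p = 0.621) and of 0.86 between the combination and anti-PD-1 alone (SE 0.37, limma adjusted p = 0.562). The groups lay apart in both comparisons, at the smallest p of 0.1 that the exact permutation test allows with 3 tumors against 3. Groups lay apart in 14.0% and 14.9% of all tested genes in these comparisons. C2 was the sole member to do so between DOX/IgG1 and IgG1, and C1ra joined it between the combination and anti-PD-1 alone. For anti-PD-1, C2 gave log2 fold changes of 0.06 without doxorubicin (SE 0.39) and -0.15 with it (SE 0.41). Both were smaller than their SEs, so neither direction nor size of a difference was settled. The interaction was -0.21 (SE 0.57, limma adjusted p = 0.993). In a bulk tumor, more cells that express C2 and more C2 RNA per cell cannot be told apart, and this applies to each gene below.

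The value of C2 depends on how reads were shared with an overlapping gene. Cfb and C2 are neighbours on the minus strand of chromosome 17 with 85 bases between them, and the gene model Gm20547 (34856412 to 34882042) runs through both on the same strand. Of the windows of 75 bases, the length of a read, in the transcripts of C2, 37.0% also occur in Gm20547, and of those of Cfb 69.9% do, so software that holds this gene model has to divide such reads. The windows were counted in GENCODE vM21, and which annotation the authors used was not stated. Gm20547 was listed at 0 in 8 tumors, at 0.96 TPM in anti-PD-1 replicate 1, at 6.09 TPM in DOX/IgG1 replicate 1 and at 6.08 and 3.82 TPM in replicates 1 and 2 of the combination. When Gm20547 was added to C2, an alternative chosen after seeing the data, the 6 tumors with doxorubicin had 7.82 to 21.3 TPM and the 6 without 2.80 to 7.24 TPM. The sum gave a log2 fold change of 1.22 for doxorubicin averaged (limma adjusted p = 0.204, within the range given above), and it was not called either. For Cfb the sum moved this estimate from 0.41 to 0.47, while leaving out 1 tumor gave 0.02 without replicate 2 of the combination to 0.78 without its replicate 3. Copies affect 3 more members, since 40.1% of the windows of C1ra occur in C1rb, 13.0% of those of C1s1 in C1s2 and 22.7% of those of C4b in C4a, which is not among the listed genes. The windows of C3, Serping1, Cfp and C5ar1 occur in no other gene.

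**Figure D3:**
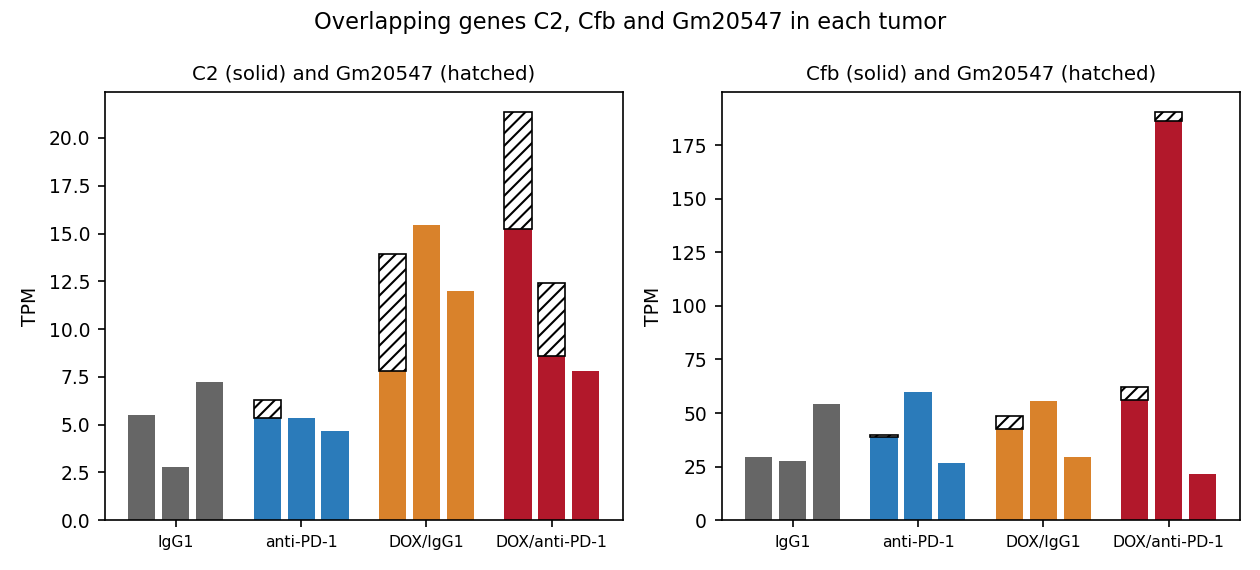
TPM of C2 and of Cfb (solid bars, colored by group) with TPM of the overlapping gene Gm20547 stacked on top (hatched), for the 3 tumors of each group in the order of their replicate numbers. Gm20547 adds 3.82 to 6.09 TPM in 3 of the 6 tumors with doxorubicin and 0.96 TPM in 1 of the 6 without.

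The proteases of the C1 complex had their highest values in DOX/IgG1 tumors, with overlap between that group and IgG1. C1ra (ENSMUSG00000055172, chromosome 6, 124512405 to 124523443, plus strand) had 11.7, 9.03 and 18.0 TPM (IgG1), 10.2, 9.02 and 10.3 TPM (anti-PD-1 alone), 10.5, 37.4 and 24.7 TPM (DOX/IgG1) and 16.1, 11.9 and 12.9 TPM (combination). DOX/IgG1 replicates 2 and 3 were higher than the other 10 tumors, while DOX/IgG1 replicate 1 lay among the tumors without doxorubicin. The log2 fold change between DOX/IgG1 and IgG1 was 0.74 (SE 0.48, limma adjusted p = 0.755) with all tumors, 1.23 without DOX/IgG1 replicate 1 and 0.36 without DOX/IgG1 replicate 2, and the limma adjusted p lay between 0.238 and 0.937 over all alternatives. All 3 combination tumors lay above all 3 anti-PD-1 tumors, at 13.6 ± 2.16 against 9.85 ± 0.716 TPM (SD, n = 3), with a log2 fold change of 0.42 (SE 0.29, limma adjusted p = 0.702). For doxorubicin averaged, C1ra gave 0.58 (SE 0.29, limma adjusted p = 0.455), 0.82 without DOX/IgG1 replicate 1 and 0.39 without DOX/IgG1 replicate 2, with limma adjusted p from 0.113 to 0.665 over all alternatives.

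C1s1 (ENSMUSG00000038521, chromosome 6, 124530345 to 124542359, minus strand), which lies 6901 bases from C1ra, had 32.9, 53.6 and 84.1 TPM (IgG1) and 25.5, 45.6 and 41.7 TPM (anti-PD-1 alone). With doxorubicin it had 66.4, 110 and 56.0 TPM with IgG1 and 46.6, 66.0 and 34.2 TPM with anti-PD-1. The highest tumor was again DOX/IgG1 replicate 2, and the groups overlapped in each of the 4 pairwise comparisons made. The mean was 43.3 TPM in the 6 tumors with anti-PD-1 and 67.3 TPM in the 6 with IgG1. This averaged comparison gave a log2 fold change of -0.59 (SE 0.27, limma p = 0.046, adjusted p = 1.0), and the exact permutation test over 6 against 6 tumors gave p = 0.0887, two-sided.

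Serping1, the gene of the inhibitor of both proteases (ENSMUSG00000023224, chromosome 2, 84765387 to 84775444, minus strand), had 17.7, 9.75 and 34.4 TPM (IgG1) and 14.8, 17.4 and 14.1 TPM (anti-PD-1 alone). It had 16.7, 36.6 and 28.7 TPM (DOX/IgG1) and 18.0, 24.6 and 16.3 TPM (combination). IgG1 replicate 3 and DOX/IgG1 replicate 2 were the highest and IgG1 replicate 2 the lowest, so the IgG1 group alone spanned most of the range. For doxorubicin averaged, the log2 fold change was 0.40 (SE 0.29, limma adjusted p = 0.611) and between 0.19 and 0.62 with 1 tumor left out, and the estimates of its 4 pairwise comparisons lay between -0.41 and 0.49. These depend on single tumors as well, since the 0.49 between DOX/IgG1 and IgG1 was 0.07 without IgG1 replicate 2 and 0.93 without IgG1 replicate 3. The -0.41 between the combination and DOX/IgG1 was -0.71 without DOX/IgG1 replicate 1 and -0.17 without DOX/IgG1 replicate 2.

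Since C1ra and C1s1 are neighbours and had their highest value in the same tumor, their promoters are shown, read from RefSeq on GRCm38.p6 from 250 bases before to 50 bases after a start and written 5′ to 3′ on the strand of the gene. RefSeq promoters were found for 5 of the 9 members (C1ra, C1s1, C3, C5ar1 and Cfp). They were searched on both strands for GAAANNGAA, a core of interferon response elements, TTCNNNGAA, a core bound by STAT factors, and GGANTTTCC, a core bound by NF-kappaB. Of all 32851 promoters, 8.6%, 8.3% and 1.3% hold these letters. The promoter of C1ra holds 1 match to TTCNNNGAA, in capitals, 32 bases after the start, and the 2 promoters of C1s1, which overlap, hold none, of which the one that starts farther upstream is shown. Starts are those of RefSeq here. In GENCODE, C1ra begins at 124512405, inside the window shown and upstream of the RefSeq start, so the match lies within the GENCODE gene. A match describes the letters only.
C1ra, chr6:124512371-124512670, plus strand: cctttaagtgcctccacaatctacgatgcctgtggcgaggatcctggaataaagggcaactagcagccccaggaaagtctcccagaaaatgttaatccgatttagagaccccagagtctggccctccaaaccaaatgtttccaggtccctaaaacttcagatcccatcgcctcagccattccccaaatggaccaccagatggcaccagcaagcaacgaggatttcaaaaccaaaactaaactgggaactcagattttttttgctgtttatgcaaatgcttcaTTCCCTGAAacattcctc
C1s1, chr6:124542310-124542609, minus strand: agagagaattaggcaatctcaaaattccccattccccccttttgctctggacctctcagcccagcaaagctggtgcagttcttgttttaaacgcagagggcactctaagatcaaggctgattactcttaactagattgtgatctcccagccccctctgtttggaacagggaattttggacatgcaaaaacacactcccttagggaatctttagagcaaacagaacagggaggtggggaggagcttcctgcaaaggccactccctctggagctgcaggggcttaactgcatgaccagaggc
The promoter of C5ar1, the receptor gene, holds 1 match on the opposite strand to GAAANNGAA, 66 bases before the RefSeq start, and is shown for comparison with these. In GENCODE, C5ar1 begins upstream of this match, at 16259540, so the match lies within the GENCODE gene.
C5ar1, chr7:16259289-16259588, minus strand: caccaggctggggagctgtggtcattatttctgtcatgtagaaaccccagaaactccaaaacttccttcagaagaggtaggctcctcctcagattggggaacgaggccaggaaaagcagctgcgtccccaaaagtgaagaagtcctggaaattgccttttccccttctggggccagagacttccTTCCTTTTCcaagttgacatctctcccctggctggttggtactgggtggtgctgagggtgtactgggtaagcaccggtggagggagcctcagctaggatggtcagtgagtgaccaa
The promoters of C3 and Cfp hold no match to the 3 motifs.

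C3 and C4b, whose products are cleaved and bound to target surfaces, showed no separation by treatment. C3 (ENSMUSG00000024164, chromosome 17, 57203970 to 57228136, minus strand) had 93.4, 52.8 and 66.7 TPM (IgG1), 82.6, 45.1 and 71.0 TPM (anti-PD-1 alone), 70.2, 106 and 54.5 TPM (DOX/IgG1) and 76.2, 85.4 and 42.5 TPM (combination). Each group spanned most of the range of all 12 tumors. The mean was 72.5 TPM with and 68.6 TPM without doxorubicin (log2 fold change 0.06, SE 0.24, limma adjusted p = 0.952), and the sign of this estimate turned with the scaling. C4b (ENSMUSG00000073418, chromosome 17, 34728380 to 34743882, minus strand) had 42.2, 90.8 and 66.7 TPM (IgG1) and 88.2, 68.7 and 110 TPM (anti-PD-1 alone). With doxorubicin it had 63.4, 94.3 and 63.0 TPM with IgG1 and 60.4, 98.7 and 86.9 TPM with anti-PD-1. Both the lowest and the highest tumor were without doxorubicin. The group means were 66.5 ± 24.3 TPM in IgG1 and 88.9 ± 20.6 TPM in anti-PD-1 tumors (SD, n = 3), a log2 fold change of 0.45 (SE 0.31, limma adjusted p = 0.996) with overlapping groups, which was 0.16 to 0.71 with 1 tumor left out.

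Cfb, the factor of the alternative convertase (ENSMUSG00000090231, chromosome 17, 34856374 to 34862518, minus strand), had 1 tumor far above the rest. Its values were 29.3, 27.6 and 54.0 TPM (IgG1), 38.6, 60.02 and 26.6 TPM (anti-PD-1 alone), 42.4, 55.4 and 29.3 TPM (DOX/IgG1) and 56.2, 186 and 21.4 TPM (combination). Replicate 2 of the combination was thus the highest and its replicate 3 the lowest of all 12 tumors. The log2 fold change between the combination and anti-PD-1 alone was 0.62 (SE 0.66, limma adjusted p = 0.809), and it was -0.18 without that tumor. Replicate 2 of the combination also had 93.6 TPM of Alb, the albumin gene of hepatocytes, which was listed at 0 in 9 tumors and at 3.28 TPM or lower in 2 more. Of the 5 hepatocyte markers, Apoa1 and Serpina1a were at 0 in all 12 tumors, Ttr was at 0 in 11, and Fgb, the most abundant by its mean, had 22.3 TPM in that tumor and 4.66 to 78.5 TPM over the 12. The markers summed to 19.5, 29.6 and 31.5 TPM (IgG1), 78.5, 28.0 and 20.2 TPM (anti-PD-1 alone), 4.7, 15.6 and 30.7 TPM (DOX/IgG1) and 8.10, 116 and 12.6 TPM (combination). Their sum gave r = 0.43 with Cfb over the 12 tumors, and -0.02 without 2 tumors.

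Endothelial markers were closer to Cfb than hepatocyte markers and also highest in replicate 2 of the combination, although another marker list, not described here, was closer. All 5 of the list (Pecam1, Cdh5, Kdr, Tek and Emcn) were above 0 in all tumors, with Pecam1 the most abundant by its mean, and gave r = 0.64 (rho = 0.51, 0.87 with group means removed and 0.52 without 2 tumors). They summed to 101, 106 and 123 TPM (IgG1), 83.6, 83.1 and 87.1 TPM (anti-PD-1 alone), 108, 118 and 67.8 TPM (DOX/IgG1) and 91.0, 132 and 51.8 TPM (combination). The part of the hepatocyte and endothelial lists in the values of Cfb was not tested.

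Cfp, which encodes properdin and is expressed by myeloid cells (ENSMUSG00000001128, chromosome X, 20925454 to 20931555, minus strand), had 19.6, 8.89 and 22.4 TPM (IgG1) and 6.02, 9.22 and 10.5 TPM (anti-PD-1 alone). It had 13.3, 11.3 and 14.0 TPM (DOX/IgG1) and 8.92, 30.3 and 14.3 TPM (combination). The anti-PD-1 group was low and narrow, and 1 IgG1 tumor and 1 combination tumor lay within its range. The log2 fold change was -0.84 between anti-PD-1 alone and IgG1 (SE 0.39, limma adjusted p = 0.996) and 0.28 between the combination and DOX/IgG1 (SE 0.45, limma adjusted p = 0.991). The interaction was 1.13 (SE 0.62, limma adjusted p = 0.993), and it ran from 0.68 without replicate 2 of the combination to 1.51 without IgG1 replicate 2 or replicate 1 of the combination. No group of tumors with anti-PD-1 lay apart from its IgG1 counterpart for any of the 9 members. Of all genes, 9.88% lay apart without and 10.2% with doxorubicin, and none among 9 members is near these shares.

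C5ar1, the receptor gene (ENSMUSG00000049130, chromosome 7, 16246743 to 16259540, minus strand), was the least abundant member. It had 2.13, 3.24 and 5.02 TPM (IgG1), 2.61, 4.02 and 2.93 TPM (anti-PD-1 alone), 5.42, 3.01 and 6.48 TPM (DOX/IgG1) and 0, 2.81 and 5.43 TPM (combination). The groups overlapped in every comparison, and 3 of the 6 tumors with doxorubicin exceeded all 6 without. The log2 fold change for doxorubicin averaged was -0.05 (SE 0.42, limma adjusted p = 0.979), and without replicate 1 of the combination, the tumor listed at 0, it was 0.34 (limma adjusted p = 0.679, the lowest of a range up to 0.992).

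Among the members, the closest relations over the 12 tumors were between C1ra, C2, Serping1 and C1s1, apart from C2 with C1s1 (r = 0.45, rho = 0.50). These correlations are given as descriptions, over tumors that share their groups. Of 36 pairs, 5 had a Pearson correlation of log2(TPM + 1) above 0.6, and the median was 0.22. The highest was that of C1ra and Serping1 (r = 0.83, Spearman's rho = 0.81, n = 12 tumors), which was 0.76 after the group means were removed and 0.74 without the 2 tumors farthest from the median of C1ra. C2 and C1ra gave r = 0.80 (rho = 0.85, 0.82 with group means removed and 0.72 without 2 tumors). C2 and Serping1 gave r = 0.72 (rho = 0.77), but 0.42 without the 2 tumors farthest in C2, so that the relation rests in part on them. C1s1 gave r = 0.67 with Serping1 (rho = 0.64) and 0.62 with C1ra (rho = 0.53, and 0.34 without 2 tumors). Serping1 and Cfp gave r = 0.51 (rho = 0.55), and Cfb and C1s1 0.45 (rho = 0.43, and 0.67 with group means removed). C3 gave r = -0.05 with C4b and 0.38 with Cfb, and C2 gave 0.32 with its neighbour Cfb. The lowest was that of C3 and C5ar1 (r = -0.44, rho = -0.71).

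Of the 14734 other genes that reached 1 TPM in at least 3 tumors, the 3 most like each member over the 12 tumors were found in the same way. For C2 they were Atp1b2 (r = 0.92), Rbms3 (0.91) and Rnf152 (0.90), and for C1ra Agtr1a (0.95), Muc16 (0.95) and Itih5 (0.94). For Serping1 they were Adamts5 (0.92), Nbl1 (0.91) and Thbd (0.89), and for C1s1 Wdr34 (0.91), Psmf1 (0.90) and Plekha6 (0.89). For Cfp, Gmds (0.93) was followed by Itgam (0.91), the gene of a chain of complement receptor 3, and Moxd1 (0.90). C3 was most like Sh2d1b1 (0.88), C4b most like Tepp (0.87), Cfb most like Dram1 (0.87) and C5ar1 most like B3gnt2 (0.92). No other member was among the 3 genes most like any member. These are the highest of 14734 correlations over 12 tumors, so high values arise by selection alone, and how high was not computed.

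The fibroblast markers varied with C1ra and Serping1, a list singled out after its values were seen among 117 relations between the 9 members and 13 marker lists, of which 10 had r above 0.6 and 1 below -0.6, and not all of these are described here. All 5 of the list (Pdgfra, Dcn, Lum, Col1a1 and Col3a1) were detected in all tumors, none at 0. Col1a1 was the most abundant by its mean over the 12 tumors, and within single tumors Col1a1 was in 5, Col3a1 in 5 and Dcn in DOX/IgG1 replicates 2 and 3. Their summed level was 996, 971 and 1491 TPM (IgG1), 697, 698 and 538 TPM (anti-PD-1 alone), 436, 1584 and 1080 TPM (DOX/IgG1) and 822, 1157 and 1285 TPM (combination). DOX/IgG1 replicate 2 was the highest and DOX/IgG1 replicate 1 the lowest, the tumors that also differed most in C1ra within that group. Over the 12 tumors the summed level gave r = 0.64 with C1ra (rho = 0.72), 0.61 with Serping1 (rho = 0.67) and 0.35 with C2 (rho = 0.49). With group means removed these were 0.83, 0.71 and 0.46, and without the 2 tumors farthest in the marker sum 0.67, 0.66 and 0.38. Between the combination and anti-PD-1 alone, where C1ra and C2 lay apart, 5 of 5 markers had estimates above 0 (4 after scaling by the median of ratios), with a median of 0.77 (0.65 after scaling) beside 0.11 for all genes and 3 at an unadjusted p below 0.05 (8.63% of all genes). Adipocyte markers had 5 of 5 estimates above 0 in that comparison before and after scaling, with a median of 1.47 (1.37 after scaling) and 4 at that limit. None of the adipocyte markers was called, and the adipocyte and fibroblast lists were not tested against each other. The adipocyte sum was 476 TPM in replicate 1 of the combination and 101 and 108 TPM in its replicates 2 and 3. Between anti-PD-1 alone and IgG1, 0 of the 5 fibroblast markers were above 0 (1 after scaling). Between DOX/IgG1 and IgG1 the directions of the fibroblast markers were mixed, since from IgG1 to DOX/IgG1 tumors the mean of Dcn was 98.5 and 339 TPM, that of Col1a1 568 and 254 TPM and that of Col3a1 400 and 282 TPM. None of the 5 markers was called in these comparisons or for doxorubicin averaged, where 3 of 5 estimates were above 0 and 2 below, and their part in the values of C1ra, Serping1 and C2 was not tested.

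**Figure D4:**
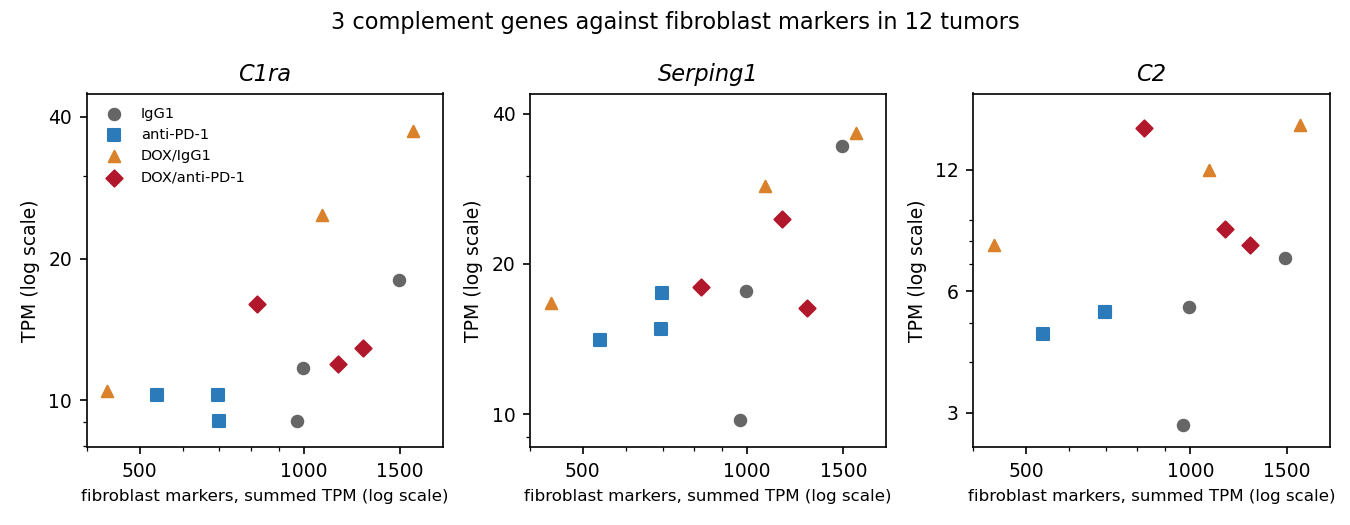
TPM of C1ra, Serping1 and C2 (vertical axes, log scale) against the summed TPM of 5 fibroblast markers (horizontal axes, log scale), 1 point per tumor with color and shape by group. C1ra and Serping1 are highest in DOX/IgG1 replicate 2, where the marker sum of 1584 TPM is also highest, while C2 is about as high in DOX/anti-PD-1 replicate 1 at a sum of 822 TPM.

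Other marker lists were as close to these members. The leukocyte gene Ptprc, which was above 0 in all 12 tumors (51.9 to 170 TPM), gave r = 0.64 with Serping1 (rho = 0.65, 0.68 with group means removed and 0.62 without 2 tumors), and the epithelial sum gave 0.63 with C1ra (rho = 0.65, 0.70 with group means removed and 0.53 without 2 tumors). With C2 the epithelial sum gave r = 0.40 (rho = 0.43, 0.70 with group means removed and 0.39 without 2 tumors), beside 0.35 for the fibroblast sum. C2 gave r = -0.67 with the acute phase genes Saa1, Saa2, Saa3, Lcn2, Hp and Orm1 (rho = -0.70), which was -0.08 with group means removed. With adipocyte markers C2 gave r = 0.55 (rho = 0.44), which was -0.13 without 2 tumors. The acute phase genes summed to 3355, 3162 and 3023 TPM (IgG1), 3014, 3333 and 5175 TPM (anti-PD-1 alone), 1914, 2075 and 1466 TPM (DOX/IgG1) and 2176, 3134 and 1784 TPM (combination), with Lcn2 the most abundant. All 6 were detected, with Orm1 at 0 in 4 tumors and Saa3 in 2. Their median log2 fold change for doxorubicin averaged was -0.82 (-0.92 after scaling by the median of ratios), with 4 of 6 below 0 in each, and 2 of 6 were called lower. No gene was called in that comparison without IgG1 replicate 2 or anti-PD-1 replicate 1. T cell markers had a median of 0.82 (0.73 after scaling, where the estimates above 0 went from 4 of 4 to 3 of 4) and adipocyte markers one of 0.97 (0.92 after scaling) in that comparison, and none of them was called. All 5 T cell markers were detected, Cd3e the most abundant by its mean and each at 0 in at least 1 tumor, and they summed to 20.3, 11.5 and 6.0 TPM (IgG1), 2.7, 14.0 and 8.8 TPM (anti-PD-1 alone), 5.8, 44.0 and 38.4 TPM (DOX/IgG1) and 13.0, 15.1 and 32.8 TPM (combination).

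Salivary gland markers were high in the DOX/IgG1 group. All 3 of the list (Bpifa2, Smr3a and Amy1) were detected in each DOX/IgG1 tumor, with sums of 52.1, 74.4 and 103 TPM, against 5.2, 15 and 5.9 TPM (IgG1), 18.0, 4.8 and 10.1 TPM (anti-PD-1 alone) and 14.8, 14.6 and 21.8 TPM (combination). Amy1 was the most abundant by its mean. Bpifa2 was at 0 in all 9 tumors of the other groups and Smr3a in 8 of them. Bpifa2 and Smr3a thus reach the minimum of 1 TPM in 3 tumors only through the DOX/IgG1 group, so no test of them is given. In DOX/IgG1 against IgG1, 2 of the acute phase genes were called lower, and 0 genes of any kind were called in that comparison without IgG1 replicate 1, 2 or 3 or DOX/IgG1 replicate 3. The salivary sum gave r = 0.60 with C1ra (rho = 0.45, 0.08 with group means removed and -0.13 without 2 tumors) and 0.56 with C2 (rho = 0.54, and -0.31 with group means removed). The part of these lists in the values of C1ra, C2 and Serping1 was not tested.

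The macrophage list (Adgre1, Cd68, Csf1r, Mrc1 and Cd14) had all 5 genes detected in all tumors, none at 0, with Cd14 the most abundant by its mean over the 12 tumors. It summed to 275, 176 and 236 TPM (IgG1), 156, 163 and 145 TPM (anti-PD-1 alone), 467, 263 and 196 TPM (DOX/IgG1) and 146, 252 and 205 TPM (combination). The anti-PD-1 tumors were low in this sum as they were in Cfp, and DOX/IgG1 replicate 1 was high through 357 TPM of Cd14. This sum gave r = 0.53 with Cfp (rho = 0.66). The highest r of the 117 relations was that of Cfp with the list of neutrophils and monocytes (r = 0.74, rho = 0.87, 0.85 with group means removed and 0.68 without 2 tumors). All 5 genes of that list (S100a8, S100a9, Csf3r, Cxcr2 and Ly6c2) were detected, S100a8 the most abundant by its mean and each at 0 in at least 1 tumor. It summed to 11.3, 3.7 and 7.4 TPM (IgG1), 5.3, 6.9 and 7.2 TPM (anti-PD-1 alone), 8.2, 8.0 and 15.2 TPM (DOX/IgG1) and 6.3, 16.0 and 10.1 TPM (combination), highest in the tumor with the highest Cfp. The part of both lists in the values of Cfp was not tested. All 5 markers of tumor epithelium were present in all tumors, with Epcam the most abundant by its mean over the 12 tumors and sums of 1914 to 3619 TPM.

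The other complement genes were taken as a list of 44, of which 43 were listed in the files and 6 (Mbl1, Mbl2, Fcnb, Colec10, C8b and C4bp) were at 0 in all 12 tumors. Between 25 and 29 of them were tested per comparison, and 0 were called by limma in any of the 7. At an unadjusted p below 0.05 there were 1 between anti-PD-1 alone and IgG1, 2 between DOX/IgG1 and IgG1, 2 between the combination and DOX/IgG1, 5 between the combination and anti-PD-1 alone and 4 for doxorubicin averaged, with 1 for anti-PD-1 averaged and 3 for the interaction. The shares of all genes at that limit were 4.6%, 7.73%, 4.7%, 8.63%, 11.9%, 4.77% and 4.71% in the same order. In comparisons with doxorubicin tumors the tested genes include C8g, which passed the filter only through them. The terminal pathway, which holds C8g, gave 1 gene at that limit between DOX/IgG1 and IgG1. It also gave 1 between the combination and anti-PD-1 alone and 1 for doxorubicin averaged. These counts are therefore not read as a result. The median log2 fold change for doxorubicin averaged was 0.11, beside 0.12 for all genes. C1qa, C1qb and C1qc, the subunits of C1q, gave estimates above 0 in that comparison, with a median of 0.14, and none was called. Of the 8 genes of the lectin pathway, 4 were at 0 in all tumors and 3 were tested for doxorubicin averaged.

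Of the alternative and terminal pathways, Cfd, the factor D gene that adipocytes express strongly, reached 419 TPM in DOX/IgG1 replicate 2, 321 TPM in replicate 1 of the combination, and 177 TPM in its replicate 2, against 143 TPM or less in the 6 tumors without doxorubicin, among which DOX/IgG1 replicates 1 and 3 (87.1 and 70.9 TPM) and replicate 3 of the combination (115 TPM) also lay. All 5 adipocyte markers were listed, with Adipoq the most abundant by its mean over the 12 tumors (Fabp4 in 4 of them) and Lep at 0 in IgG1 replicate 1. They summed to 36.1, 163 and 104 TPM (IgG1), 45.1, 38.1 and 69.7 TPM (anti-PD-1 alone), 81.1, 384 and 56.1 TPM (DOX/IgG1) and 476, 101 and 108 TPM (combination), highest in the 2 tumors with the highest Cfd but not in replicate 2 of the combination, and their part in the value of Cfd was not tested. Cfd was not called for doxorubicin averaged (log2 fold change 0.81, SE 0.41, limma adjusted p = 0.457), and the estimate was 0.41 without DOX/IgG1 replicate 2. All 3 combination tumors lay above all 3 anti-PD-1 tumors, as groups did in either direction for 14.9% of all tested genes. The log2 fold change of Cfd was 1.23 there (SE 0.37, limma adjusted p = 0.489). It was not called and ran from 0.84 without replicate 1 of the combination to 1.58 without its replicate 3. C8g, a component of the membrane pore, had 0, 0.90 and 2.69 TPM (IgG1) and 0, 3.0 and 0 TPM (anti-PD-1 alone), and 5.48, 3.70 and 4.80 TPM (DOX/IgG1) and 2.40, 2.77 and 5.86 TPM (combination). All 3 DOX/IgG1 tumors lay above the 6 without doxorubicin, while the combination overlapped with anti-PD-1 alone. Of all tested genes, 14.0% lay apart between DOX/IgG1 and IgG1. C8g reached the minimum of 1 TPM in 3 tumors only through tumors with doxorubicin, so no test of it is given.

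**Figure D5:**
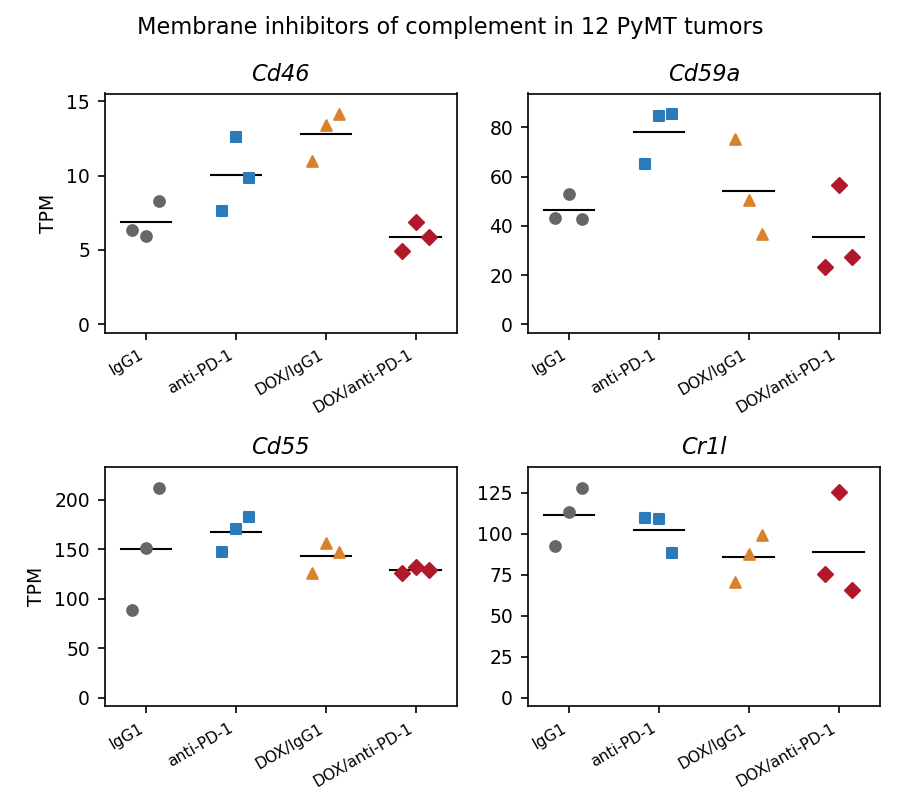
TPM of 4 complement inhibitors of the cell membrane in each tumor (points) by treatment group, with the group mean (line); each vertical axis is linear and has its own range. Cd46 is higher in all DOX/IgG1 than in all IgG1 tumors and lower in all DOX/anti-PD-1 than in all anti-PD-1 tumors.

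Of the inhibitors of complement on cell membranes, Cd55 had 88.2 to 212 TPM and Cr1l 65.5 to 128 TPM over the 12 tumors, and neither was called in any comparison. Cd59a, whose product blocks the membrane pore, had 43.2, 52.9 and 42.9 TPM (IgG1), 65.0, 84.7 and 85.2 TPM (anti-PD-1 alone), 75.2, 50.3 and 36.5 TPM (DOX/IgG1) and 23.3, 56.4 and 27.2 TPM (combination). The anti-PD-1 tumors were above all tumors of IgG1 and of the combination, with log2 fold changes of 0.74 against IgG1 (SE 0.23, limma adjusted p = 0.996) and of -1.21 for the combination against anti-PD-1 alone (SE 0.34, limma adjusted p = 0.479). Of all tested genes, 9.88% lay apart between anti-PD-1 alone and IgG1 and 14.9% between the combination and anti-PD-1 alone. Cd59a, Cfd and C8g were singled out after their values were seen.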

How the data were processed

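RNA of 12 whole PyMT tumors was sequenced from 1 end with a stranded kit. The authors trimmed reads with skewer, used STAR on mm10 and RSEM for gene levels (versions not stated), and deposited log2(TPM + 1) values with decimal commas, which were turned back into TPM. The step was checked on all values, which gave multiples of 0.01 TPM. No other unit, count or depth is in the files, and TPM was taken from the study's methods, since FPKM would look alike.

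Genes at 1 TPM or more in at least 3 tumors of a fit were tested with limma 3.58.1 (R 4.3.3) on log2(TPM + 1) with a mean-variance trend, two-sided, with Benjamini-Hochberg adjustment over all genes tested. Pairwise comparisons used 6 tumors, and averages and the interaction all 12. Exact permutation tests compared mean log2(TPM + 1) of tumors (Python 3.11.15, SciPy 1.17.1, NumPy 2.4.6, pandas 2.3.3). Groups came from the labels. The fit was tested on simulated data. All members and the lists of complement and marker genes were named by a rule written as lists of symbols. The members and lists were chosen with earlier results of these data known. Cd59a, Cd46, Itgax, Cfd and C8g were picked from the lists after values were seen. Positions and transcripts came from GENCODE vM21 and promoters from RefSeq. Shared windows were counted over all transcripts of each gene. Alternatives were another pseudocount, other filters, median of ratios scaling, a replicate block, no trend, all 12 tumors in 1 fit, leaving out each tumor and, added after seeing the data, members summed with overlapping or copied genes.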

Additional observations from a re-analysis of the deposited data

Results flagged for a closer look

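Cd46, a membrane cofactor that lets factor I cleave C3b and C4b, differed in the direction of its difference with doxorubicin between the antibodies, and was picked for this after its values were seen. It had 6.34, 5.91 and 8.30 TPM (IgG1) against 11.0, 13.4 and 14.1 TPM (DOX/IgG1), and 7.63, 12.6 and 9.86 TPM (anti-PD-1 alone) against 4.90, 6.91 and 5.87 TPM (the combination). Every DOX/IgG1 tumor was above every IgG1 tumor, and every combination tumor was below every tumor given anti-PD-1 alone. Of all tested genes, 14.0% and 14.9% lay apart in these 2 comparisons, in either direction. The log2 fold changes of Cd46 were 0.82 (SE 0.34, limma adjusted p = 0.621) and -0.66 (SE 0.34, limma adjusted p = 0.617). The interaction was -1.48 (SE 0.45, limma adjusted p = 0.993), so it did not pass the adjustment over all genes, and leaving out each tumor in turn gave -1.65 to -1.32.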

How the results depend on the processing

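Of the 9 members, C2 for doxorubicin averaged was the only fold change whose call depended on a setting, of 63 fold changes of members followed through 7 comparisons. It was called without DOX/IgG1 replicate 1 (1.09, limma adjusted p = 0.0934, with 2.04% of all genes called there) and in none of the other alternatives, whose log2 fold changes lay between 0.81 and 1.22 with limma adjusted p from 0.0934 to 0.412 over all of them, and the cause was not tested. Members called by limma therefore numbered 0 to 1 in that comparison over the tumors left out and 0 in the other 6.

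Of 1172 alternatives to 76 fold changes, 1106 kept direction and side of the threshold, 1 was newly called (C2, above) and 65 changed sign. The sign changed in 30 fold changes, none of them called and none above 0.62 in absolute value. Scaling by the median of ratios turned C3 to -0.02 (DOX/IgG1 against IgG1), -0.11 (the combination against anti-PD-1 alone) and -0.06 (doxorubicin averaged) and C4b to -0.09 (doxorubicin averaged). Adding Gm20547, chosen after seeing the data, turned C2 for anti-PD-1 averaged to 0.02. The cause was not tested for these, and the sign changes below come with fewer tumors.

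Leaving out 1 tumor at a time gave these ranges of log2 fold changes where a sign turned. Anti-PD-1 alone against IgG1: C2 -0.26 to 0.30, C3 -0.29 to 0.15, Cfb -0.13 to 0.46, Serping1 -0.65 to 0.21, C5ar1 -0.29 to 0.19. DOX/IgG1 against IgG1: C3 -0.16 to 0.32, C4b -0.11 to 0.44, Cfb -0.00029 to 0.51, Cd59a -0.10 to 0.41, Itgax -0.03 to 0.31. The combination against DOX/IgG1: C2 -0.43 to 0.05, C3 -0.40 to 0.12, Cfb -0.23 to 1.30, Cfp -0.16 to 0.67. The combination against anti-PD-1 alone: C3 -0.23 to 0.32, C4b -0.29 to 0.08, Cfb -0.18 to 1.35, C5ar1 -1.09 to 0.26. Doxorubicin averaged: C3 -0.07 to 0.21, C4b -0.11 to 0.16, C5ar1 -0.33 to 0.34. Anti-PD-1 averaged: C2 -0.21 to 0.07, C3 -0.25 to 0.01, Cfb -0.04 to 0.73. Interaction: C2 -0.48 to 0.11, C3 -0.33 to 0.22, Cfb -0.39 to 1.14, C1ra -0.80 to 0.07, C1s1 -0.44 to 0.22, Serping1 -0.62 to 0.24.

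The number of all genes called by limma moved more. For anti-PD-1 alone against IgG1 it was 0 (630 at an unadjusted p below 0.05), 1 with no trend and 0 to 4 with tumors left out. For DOX/IgG1 against IgG1 it was 5, then 2 with the replicate block, 13 with no trend and 0 to 122 with tumors left out, 122 without DOX/IgG1 replicate 1. For the combination against DOX/IgG1 it was 0 (655 at an unadjusted p below 0.05), then 3 with scaling, 3 with no trend, 2 with all 12 tumors in 1 fit and 0 to 4. For the combination against anti-PD-1 alone it was 0 (1185 at an unadjusted p below 0.05), 3 with no trend and 0 to 4. For doxorubicin averaged it was 13, then 6 with a pseudocount of 0.1, 7 with a minimum of 5 TPM and 0 to 301, 301 without DOX/IgG1 replicate 1. For anti-PD-1 averaged it was 1, then 0 with the pseudocount, 0 with the minimum of 5 TPM, 0 with scaling, 0 with the replicate block, 3 with no trend and 0 to 5. For the interaction it was 1, then 0 with the pseudocount, 3 with no filter, 0 with the minimum of 5 TPM, 0 with scaling, 0 with the replicate block, 3 with no trend and 0 to 1. The cause was not tested, and the minimum of 5 TPM left C8g untested and C5ar1 untested in 2 comparisons.

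Replicate numbers were also tried as a replicate block. The 18 pairs of tumors with the same number correlated with r from -0.096 to 0.134 (median 0.017) after group means were removed, with 4 above 0.1. The 36 pairs with different numbers gave r from -0.19 to 0.113 (median -0.005), with 3 above 0.1. The mean r of each tumor with the tumors of each of the 3 numbers was also compared. Of 12 tumors, 8 had their highest mean with their own number, where 1 in 3 would do so on average without pairing. Correlations of this size were taken as too weak a likeness to treat the numbers as pairing, although whether the tumors were paired was not tested. With the replicate block, C2 for doxorubicin averaged stayed at 0.97 (limma adjusted p = 0.255, within the range above), and 9 genes were called, 8 of them among the 13.

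Depth is unknown, and TPM values near the step of 0.01 and values of 0 cannot be weighed by counts, which limits C5ar1, C8g and Gm20547 most. With 3 tumors per group, small differences can be missed. Doxorubicin, tumor size at the start and antibody dose cannot be told apart, nor can cell number and RNA per cell. Protein levels and complement deposition were not measured here.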

Other observations

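Itgax, the gene of a chain of complement receptor 4, singled out after its values were seen, had 21.8, 16.2 and 24.8 TPM (IgG1), 46.9, 28.5 and 23.7 TPM (anti-PD-1 alone), 18.6, 22.1 and 30.2 TPM (DOX/IgG1) and 14.2, 12.6 and 12.8 TPM (the combination). The combination was the lowest group and lay below all tumors of the other groups. Of all tested genes, 14.9% lay apart between the combination and anti-PD-1 alone and 10.2% between the combination and DOX/IgG1. The log2 fold change of Itgax for the combination against anti-PD-1 alone was -1.20 (SE 0.31, limma adjusted p = 0.479), and the interaction was -1.36 (SE 0.43, limma adjusted p = 0.993). Of the receptors of the anaphylatoxins, C3ar1 had group means between 8.11 and 12.0 TPM and C5ar2 between 5.08 and 11.8 TPM, and neither was called in any comparison.

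Hc, which encodes C5, the precursor of the ligand of C5ar1, ranged from 2.86 TPM in IgG1 replicate 1 to 26.3 TPM in DOX/IgG1 replicate 2, with IgG1 replicate 2 next at 24.4 TPM. Its log2 fold change for doxorubicin averaged was 0.36 (SE 0.45, limma adjusted p = 0.79).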
